A study of Mus musculus with 14 samples.

Results

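Complex I, the NADH dehydrogenase of the mitochondrial inner membrane, was examined through the 39 nuclear genes whose symbols start with Ndufa, Ndufb, Ndufc, Ndufs or Ndufv and that the deposited annotation calls protein-coding, out of 55291 gene rows in the count tables. Assembly factors with symbols starting Ndufaf were left out of the members, and 6 rows with matching symbols were left out because the annotation calls them processed pseudogenes. The libraries came from dentate gyri cut out of mouse entorhino-hippocampal slice cultures, which had been prepared at postnatal day 4 to 5 and kept for at least 18 days. 8 libraries came from cultures of a gene-targeted line lacking the amyloid precursor protein (APP-/-, here APPko), and 6 came from C57BL/6J cultures (APP+/+, here wildtype). Every group was untreated, every library held polyA RNA of 1 gyrus, and the labels do not say which cultures came from the same animal, so the p-values rest on the spread from culture to culture. The targeting is not limited to a cell type.

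Complex I passes electrons from NADH to ubiquinone and moves protons across the inner membrane, and it is a main entry point of electrons into the respiratory chain. Its core subunits are held in common with bacteria: those of the peripheral arm carry the flavin and the iron-sulphur clusters and are encoded in the nucleus, while those of the membrane arm are encoded in mitochondrial DNA. Accessory subunits wrap around this core and are needed for its assembly and stability. Neurons depend heavily on oxidative phosphorylation, and loss of complex I subunits in mice and humans causes disease of the brain.

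Promoters of genes for mitochondrial proteins are known for binding sites of nuclear respiratory factor 1 (NRF1), of ETS-family factors and of YY1. RefSeq windows of 250 bases before to 50 bases after the start site (GRCm38.p6) were available for 33 of the 39 members, some with more than 1 window, and both strands were searched for the letters GCGCATGCG (NRF1), CCGGAAG (ETS) and AAGATGGCG (YY1). The YY1 letters were in a window of 5 of 33 members (15.2%), against 443 of 27025 genes of the whole table (1.64%) and 373 of 16801 protein-coding genes (2.22%). The NRF1 letters were in 2 members (6.06%), against 1.95% of all genes and 2.72% of protein-coding ones. The ETS letters were in 4 members (12.1%), against 9.93% of all genes and 13.2% of protein-coding ones. No member held more than 1 of the 3 motifs. The 5 stretches with the YY1 letters are shown because they place the motif at the same spot of each gene, with the motif in capitals and each read 5′ to 3′ along the gene's strand.
Ndufa9 (chr6:126849096-126849125, minus strand): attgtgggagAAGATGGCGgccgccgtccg
Ndufc1 (chr3:51408914-51408943, minus strand): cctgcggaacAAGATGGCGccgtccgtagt
Ndufs4 (chr13:114388045-114388074, minus strand): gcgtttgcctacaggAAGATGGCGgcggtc
Ndufs6 (chr13:73328433-73328462, minus strand): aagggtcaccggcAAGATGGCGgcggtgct
Ndufs7 (chr10:80249463-80249492, plus strand): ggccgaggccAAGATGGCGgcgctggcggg
In each of the 5 genes the motif was on the coding strand and began 22 to 35 bases after the RefSeq start site. The ATG inside the motif was an annotated start codon in 5 of 5. How often this held for matches in other genes was not counted. The shares above therefore cannot tell a YY1 site from the letters around a start codon. None of these 5 genes passed the threshold used below. Their log2 changes in APPko against wildtype were 0.24 for Ndufs7, 0.10 for Ndufs4, 0.07 for Ndufs6, -0.14 for Ndufa9 and -0.38 for Ndufc1. The standard errors ran from 0.09 to 0.17, and a shared change was not tested. The 2 stretches with the NRF1 letters are shown because their matches lie before the start site and not at a shared spot, and in neither gene did the change pass the threshold used below.
Ndufa8 (chr2:36049328-36049357, minus strand): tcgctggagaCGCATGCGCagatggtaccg
Ndufa11 (chr17:56717692-56717721, plus strand): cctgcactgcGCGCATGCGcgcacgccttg
In Ndufa8 the letters are those of the other strand, beginning 9 bases before the start site. In Ndufa11 they begin 60 bases before it, and the match on the other strand overlaps the one shown by all but 1 base. A match of letters is not a measured binding site, and no factor's binding was measured in these samples.

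Depth ran from 20298058 to 31031126 counts per library in APPko and from 16686909 to 29713323 in wildtype. App, the targeted gene, had 182 to 231 CPM (counts scaled to a common library size by trimmed mean of M-values, TMM) in APPko and 679 to 964 CPM in wildtype, a log2 change of -1.92. App was thus lower in every APPko library but not at 0, and the values per gene do not show which part of it the remaining reads came from. Prox1, which marks dentate granule cells, was present at 152 ± 33.4 CPM in APPko and 158 ± 40.5 CPM in wildtype (SD, n = 8 and 6). In 2 wildtype libraries, numbers 2 and 3, the TMM scaling factor was 0.852 and 0.847, while no other library was under 0.976. The headers of the count tables carry a suffix f or m that the labels do not explain, f in APPko 1 to 7 and wildtype 1 to 3, and m in APPko 8 and wildtype 4 to 6. Several other quantities differed between the groups. Ribosomal protein genes took 3.22 ± 0.26% of counts in APPko and 2.44 ± 0.45% in wildtype. Of 7 microglial markers 2 (C1qb, Tyrobp) passed as higher, and 5 log2 changes were positive and 2 negative (Cx3cr1, P2ry12). The summed level of the 7 was 416 to 711 CPM in APPko and 186 to 525 CPM in wildtype. In wildtype library 4 C1qb (237 CPM) and Tyrobp (102.5 CPM) were within the APPko range, and both were lowest in wildtype library 2, at 60.1 and 28.7 CPM. Of 8 granule cell markers 3 (C1ql3, Rfx3, Npy1r) passed as lower, and 1 log2 change was positive (C1ql2) and 7 negative. The summed level of the 8 was 480.0 to 844 CPM in APPko and 633 to 1255 CPM in wildtype. No marker on either list was at 0 in every library, and the part of these in the values below was not tested.

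No complex I gene passed the threshold in APPko against wildtype, an adjusted p of 0.05 in edgeR's quasi-likelihood test over 22150 genes, a threshold that 2.35% of all tested genes passed. All 39 members were abundant enough to be tested. The smallest adjusted p was 0.0916, for Ndufc2. At an unadjusted p under 0.05 stood 9 members, 4 higher and 5 lower, which is 23.1% of members against 20.4% of all tested genes. DESeq2's Wald test passed 3 members, 1 as higher and 2 as lower, among them Ndufc2 (higher) and Ndufa12 (lower), where it passed 7.97% of all genes. In none of the 39 did every APPko library lie on 1 side of every wildtype library, which 1.12% of all tested genes did.

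The members' changes were small and went both ways. 16 log2 changes were positive and 23 negative, with a median of -0.06 against -0.01 over all tested genes. Their median size was 0.16 and their median standard error 0.12, against 0.22 and 0.19 over all tested genes. For 32 of 39 members the 95% interval of the fold change stayed within 1.5-fold in either direction, so for these a larger change was outside the interval. Ndufa12 (-0.63) and Ndufa4l2 (0.66) had fitted changes beyond 1.5-fold. Together the members took 1.49 ± 0.04% of counts in APPko and 1.47 ± 0.16% in wildtype (SD, n = 8 and 6), with ranges of 1.41 to 1.53% in APPko and 1.28 to 1.71% in wildtype. In whole gyri, fewer cells of a type and less RNA per cell cannot be told apart.

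**Figure D1:**
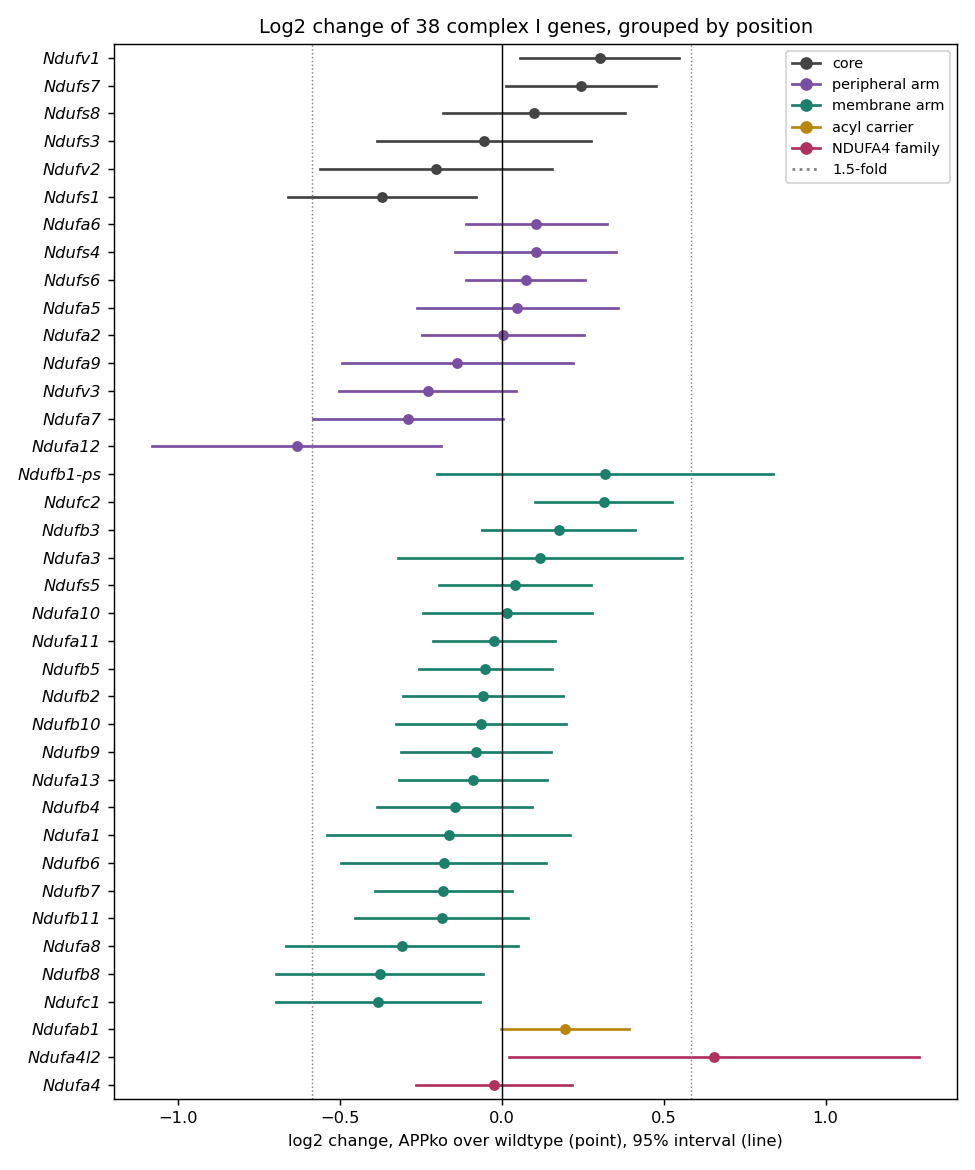
Fitted log2 change in APPko over wildtype (points) with its 95% interval (lines) for 38 complex I genes, ordered by change within each position in the complex; dotted lines mark 1.5-fold. The points lie between -0.63 (Ndufa12) and 0.66 (Ndufa4l2), 16 above and 22 below 0.

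Among the nuclear core subunits, Ndufs1, Ndufv1 and Ndufs7 had unadjusted p-values under 0.05 and did not share a direction. Ndufs1, the largest iron-sulphur subunit, had 98.3, 120.3 and 133 CPM in APPko, against 114, 141 and 214 CPM in wildtype. The 2 highest wildtype values were those of libraries 2 and 3, and the other wildtype libraries lay among or close above the APPko ones. Its log2 change was -0.37 (SE 0.14, adjusted p = 0.140). Ndufv1, which binds NADH and the flavin, had its higher values in APPko, with 110.5, 133 and 147 CPM in APPko, against 73.4, 110.4 and 136 CPM in wildtype. Only wildtype library 4 was above the APPko median. The log2 change of Ndufv1 was 0.30 (SE 0.12, adjusted p = 0.153). Ndufs7, an iron-sulphur subunit at the ubiquinone pocket, had 197, 236 and 245 CPM in APPko, against 133, 198 and 235 CPM in wildtype. Wildtype library 1 held the low value and wildtype library 3 the high one. Its log2 change was 0.24 (SE 0.11, adjusted p = 0.219).

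Ndufv2, Ndufs3 and Ndufs8 stood further from the threshold. Ndufv2, an iron-sulphur partner of Ndufv1, averaged 612 ± 98.8 CPM in APPko and 705 ± 241 CPM in wildtype, with wildtype libraries 2 and 3 at 969 and 1041 CPM and the other wildtype libraries at 492 to 665 CPM. Ndufs3, a core subunit between the flavin end and the ubiquinone pocket, averaged 262 ± 36.1 CPM in APPko and 272 ± 85.6 CPM in wildtype. Ndufs8, which carries iron-sulphur clusters next to Ndufs7, averaged 215 ± 24.6 CPM in APPko and 200.3 ± 48.2 CPM in wildtype. Adjusted p-values of these 6 core genes ran from 0.140 to 0.890 (edgeR). Ndufv1 and Ndufv2, which sit side by side in the NADH-binding end, thus had group means on opposite sides.

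The 9 accessory subunits of the peripheral arm had a median log2 change of 0.00, and Ndufa12 had an adjusted p below those of the other 8. Ndufa12 is an accessory subunit of the peripheral arm, and in mammals its incorporation comes late in assembly. It had 573, 633 and 754 CPM in APPko, against 537, 948 and 1761 CPM in wildtype. The wildtype libraries were far apart: 1104, 1761 and 1275 CPM in libraries 1, 2 and 3, and 537, 542 and 793 CPM in libraries 4, 5 and 6, so that all 8 APPko libraries lay inside the wildtype range. Its log2 change was -0.63 (SE 0.21, adjusted p = 0.106). The change was -0.20 without wildtype libraries 2 and 3 (adjusted p = 0.666). Without wildtype library 4 it was -0.76 (adjusted p = 0.0305) and without wildtype library 5 it was also -0.76 (adjusted p = 0.0483), and these fits passed 6.36% and 2.73% of all tested genes.

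The remaining peripheral members had closer group means. Ndufs4, whose loss in mice gives a Leigh-like brain disease, averaged 260.3 ± 38.1 CPM in APPko and 242 ± 38.9 CPM in wildtype. Ndufs6, a zinc-binding subunit, averaged 271 ± 11.9 CPM in APPko and 258 ± 27.2 CPM in wildtype. Ndufa9, a nucleotide-binding subunit beside the membrane, averaged 179 ± 23 CPM in APPko and 197 ± 69.5 CPM in wildtype. The wildtype SD exceeded the difference of the means in each of these 3. Ndufa6, a member of the LYR-motif family that binds the acyl carrier protein, averaged 485 ± 40.0 CPM in APPko and 451 ± 65.9 CPM in wildtype. Ndufa7 averaged 479.9 ± 23 CPM in APPko and 587 ± 165 CPM in wildtype, and Ndufv3, a small subunit at the NADH-binding end, averaged 403 ± 39.2 CPM in APPko and 472 ± 109 CPM in wildtype. Ndufa5 averaged 499 ± 76.7 CPM in APPko and 483 ± 134 CPM in wildtype, with its highest value, 743 CPM, in wildtype library 1. Ndufa2, which has a thioredoxin-like fold, averaged 616 ± 60.3 CPM in APPko and 615 ± 121 CPM in wildtype.

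The 20 accessory subunits of the membrane arm had 6 positive and 14 negative log2 changes, with a median of -0.07. Ndufc2, a subunit of the membrane arm, stood closest to the threshold among all 39 members. It had 613, 699 and 863 CPM in APPko, against 480.0, 591 and 617 CPM in wildtype. 7 of the 8 APPko libraries were above every wildtype library, and APPko library 3, at 613 CPM, was below wildtype library 2, at 617 CPM. The log2 change of Ndufc2 was 0.31 (SE 0.10, 95% interval 0.10 to 0.53, adjusted p = 0.0916), and it was 0.36 without wildtype libraries 2 and 3 (adjusted p = 0.181). Ndufc2 was also the 1 member with a smaller coefficient of variation in wildtype, 8.81%, against 11% in APPko.

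Ndufc1, its neighbour by name, had higher values in several wildtype libraries, with 408, 514 and 543 CPM in APPko, against 409.9, 635 and 945 CPM in wildtype. Wildtype library 1 held the highest value and wildtype library 4 the lowest of its group. Its log2 change was -0.38 (SE 0.15, adjusted p = 0.158), and -0.49 without wildtype library 4 (adjusted p = 0.0411). Ndufb8, whose protein is often used on blots as a sign of assembled complex I, had 311, 355 and 387 CPM in APPko, against 326, 381 and 657 CPM in wildtype. Only wildtype libraries 2 and 3, at 657 and 642 CPM, and wildtype library 6, at 400.4 CPM, were above the APPko range. Its log2 change was -0.38 (SE 0.15, adjusted p = 0.167), and -0.03 without wildtype libraries 2 and 3 (adjusted p = 0.933).

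**Figure D2:**
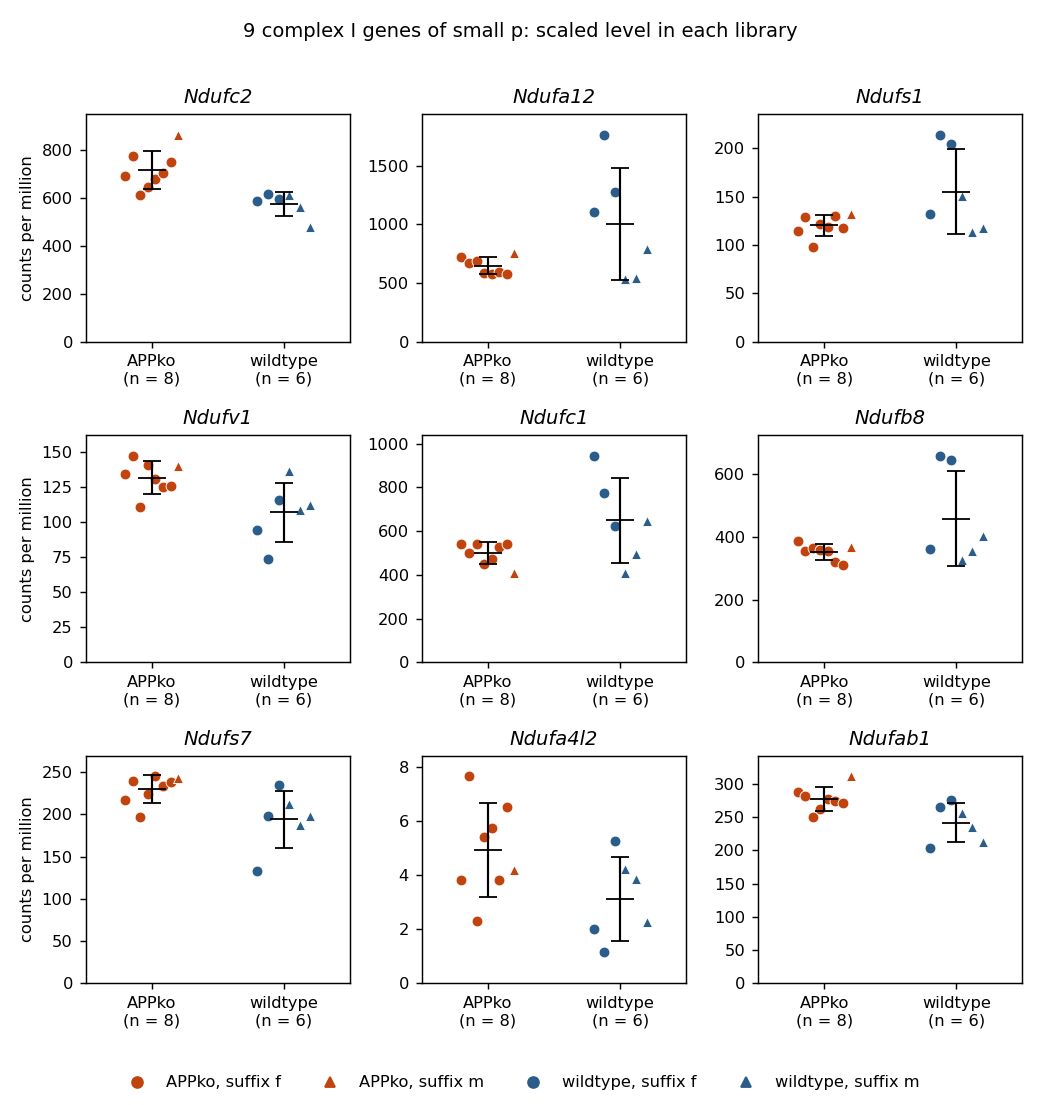
Level in each library, in CPM scaled by TMM (vertical axes from 0), of 9 complex I genes among the 10 with the smallest p; circles and triangles are libraries with header suffix f and m, and black bars give the mean and SD of 8 APPko and 6 wildtype libraries. The groups overlap in all 9, and for Ndufa12, Ndufs1, Ndufc1 and Ndufb8 the wildtype SD is at least 3 times the APPko SD.

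The 2 X-linked members are both membrane-arm subunits. Ndufa1, which is needed for assembly of the complex, had 184, 279 and 316 CPM in APPko, against 204, 267 and 508 CPM in wildtype (log2 change -0.16, SE 0.18, adjusted p = 0.653). Its lowest value was in APPko library 8 and its highest in wildtype library 1. Ndufb11 had 380.0, 412 and 486 CPM in APPko, against 364, 458 and 632 CPM in wildtype (log2 change -0.19, SE 0.13, adjusted p = 0.437). Its highest values were in wildtype libraries 2 and 3.

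Of the other membrane-arm members, Ndufa8, a subunit on the intermembrane-space side with twin cysteine motifs, averaged 419 ± 40.5 CPM in APPko and 518 ± 197 CPM in wildtype, where libraries 2 and 3 held 818 and 716 CPM. Ndufb7 and Ndufs5, of the same twin cysteine kind, averaged 399.6 ± 17.1 and 346 ± 31.3 CPM in APPko, against 453 ± 71.9 and 336 ± 58.4 CPM in wildtype. Ndufb10, also on that side, averaged 622 ± 86.0 CPM in APPko and 650.3 ± 127 CPM in wildtype. None of these 4 differed by more than the wildtype spread. Ndufa13, also known as GRIM-19, averaged 785 ± 48.9 CPM in APPko and 835 ± 138 CPM in wildtype. Ndufa10, which resembles nucleoside kinases, averaged 243 ± 22.0 CPM in APPko and 239.7 ± 54.0 CPM in wildtype. Ndufa11, which lies next to the membrane core, averaged 229 ± 10.9 CPM in APPko and 233 ± 27.7 CPM in wildtype. Ndufb3 averaged 319 ± 38.9 CPM in APPko and 282 ± 43.4 CPM in wildtype, and Ndufb9, another LYR-motif protein that binds the acyl carrier protein, averaged 336 ± 18.1 CPM in APPko and 355 ± 70.9 CPM in wildtype. Ndufb4 averaged 364 ± 39.3 CPM in APPko and 402 ± 69.9 CPM in wildtype, Ndufb5 averaged 289.9 ± 23.4 CPM in APPko and 300.3 ± 38.9 CPM in wildtype, and Ndufb2 averaged 51.0 ± 6.69 CPM in APPko and 53.0 ± 9.41 CPM in wildtype. Ndufb6 averaged 287 ± 28.7 CPM in APPko and 325 ± 104 CPM in wildtype. Ndufa3 averaged 454 ± 88.1 CPM in APPko and 418 ± 181 CPM in wildtype, and Ndufb1-ps, which the annotation calls protein-coding in spite of its name, averaged 177 ± 56.3 CPM in APPko and 142 ± 60.7 CPM in wildtype. Adjusted p-values in the membrane-arm group ran from 0.0916 to 0.962.

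Ndufab1, the mitochondrial acyl carrier protein, serves lipoic acid synthesis as well as complex I. It had 250.1, 276 and 312 CPM in APPko, against 204, 246 and 277 CPM in wildtype. The 4 highest APPko libraries were above every wildtype library, and the lowest wildtype value was in library 1. The log2 change was 0.20 (SE 0.09, adjusted p = 0.248), and 0.30 (adjusted p = 0.0497) when libraries were scaled by their totals only, a setting in which Ndufc2 also passed (0.41, adjusted p = 0.0289) and 1.6% of all genes did.

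Ndufa4 and its paralog Ndufa4l2 match the symbol rule but are not held to be structural subunits of complex I: the NDUFA4 protein is counted with cytochrome c oxidase, and NDUFA4L2 is known as a target of hypoxia-inducible factor that lowers respiration. Ndufa4 had 955, 1073 and 1208 CPM in APPko, against 881, 1022 and 1372 CPM in wildtype, with means of 1061 ± 88.7 and 1079 ± 197 CPM. Ndufa4l2 had 2.29, 4.79 and 7.65 CPM in APPko, against 1.15, 3.04 and 5.25 CPM in wildtype. Its libraries held 25 to 194 counts each, where each of the other 38 members had at least 867 counts in every library. 4 APPko libraries were above every wildtype library and the others were among them, and the log2 change was 0.66 (SE 0.30, adjusted p = 0.227). Its 95% interval, 0.02 to 1.29, was the widest of the 39, and changes inside it could not be told apart at this depth and spread.

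The clearest pattern among the members was in the spread of the wildtype libraries rather than in the means. Wildtype held 3 f and 3 m libraries and APPko held 7 f and 1 m, and the part of the suffix in this spread was not tested. The coefficient of variation over libraries was larger in wildtype for 38 of 39 members (97.4%), against 78.7% of all tested genes. Its median over members was 9.73% in APPko and 20% in wildtype, where all tested genes had medians of 19.3% in APPko and 29.3% in wildtype. For 20 members (51.3%) every APPko library lay inside the wildtype range, which held for 29.8% of all tested genes. The tested genes were not matched to the members in abundance. The wider wildtype spread was not particular to complex I. In summed CPM the SD in APPko and wildtype was 609 and 2599 for the members. It was 73.3 and 470 for complex II, 151 and 410 for complex III, and 497 and 1243 for complex V. Closer were complex IV (452 and 618) and the mitochondrially encoded complex I subunits (1119 and 1149). Wildtype libraries held both ends for many members. The highest library was wildtype 1, 2 or 3 for 29 of 39 members, and the lowest was a wildtype library for 29, among them wildtype 4 for 11. How often this held over all tested genes was not counted, so these counts cannot be called particular to complex I. As a share of raw counts, without TMM scaling, the members took 1.61 and 1.46% in wildtype libraries 2 and 3. They took 1.71, 1.28, 1.35 and 1.43% in wildtype libraries 1, 4, 5 and 6. In TMM-scaled CPM the mean of wildtype libraries 2 and 3 was above that of the other wildtype libraries for 31 members. The median difference was 0.29 on the log2 scale, against -0.07 over all tested genes, of which 45.3% were higher there. Within this, the members split: the difference was 1.08 for Ndufa12, 0.96 for Ndufa8, 0.87 for Ndufa9 and Ndufv2, and 0.85 for Ndufb8, while it was -1.10 for Ndufb1-ps, -0.88 for Ndufa3, -0.41 for Ndufb2 and -0.37 for Ndufa1. Ndufa3 shows it per library, with 257 and 259.8 CPM in wildtype libraries 2 and 3. It had 718, 329, 407 and 537 CPM in wildtype libraries 1, 4, 5 and 6. Without wildtype libraries 2 and 3 no member passed (0.147% of all tested genes did), and the median log2 change of the members was 0.09.

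**Figure D3:**
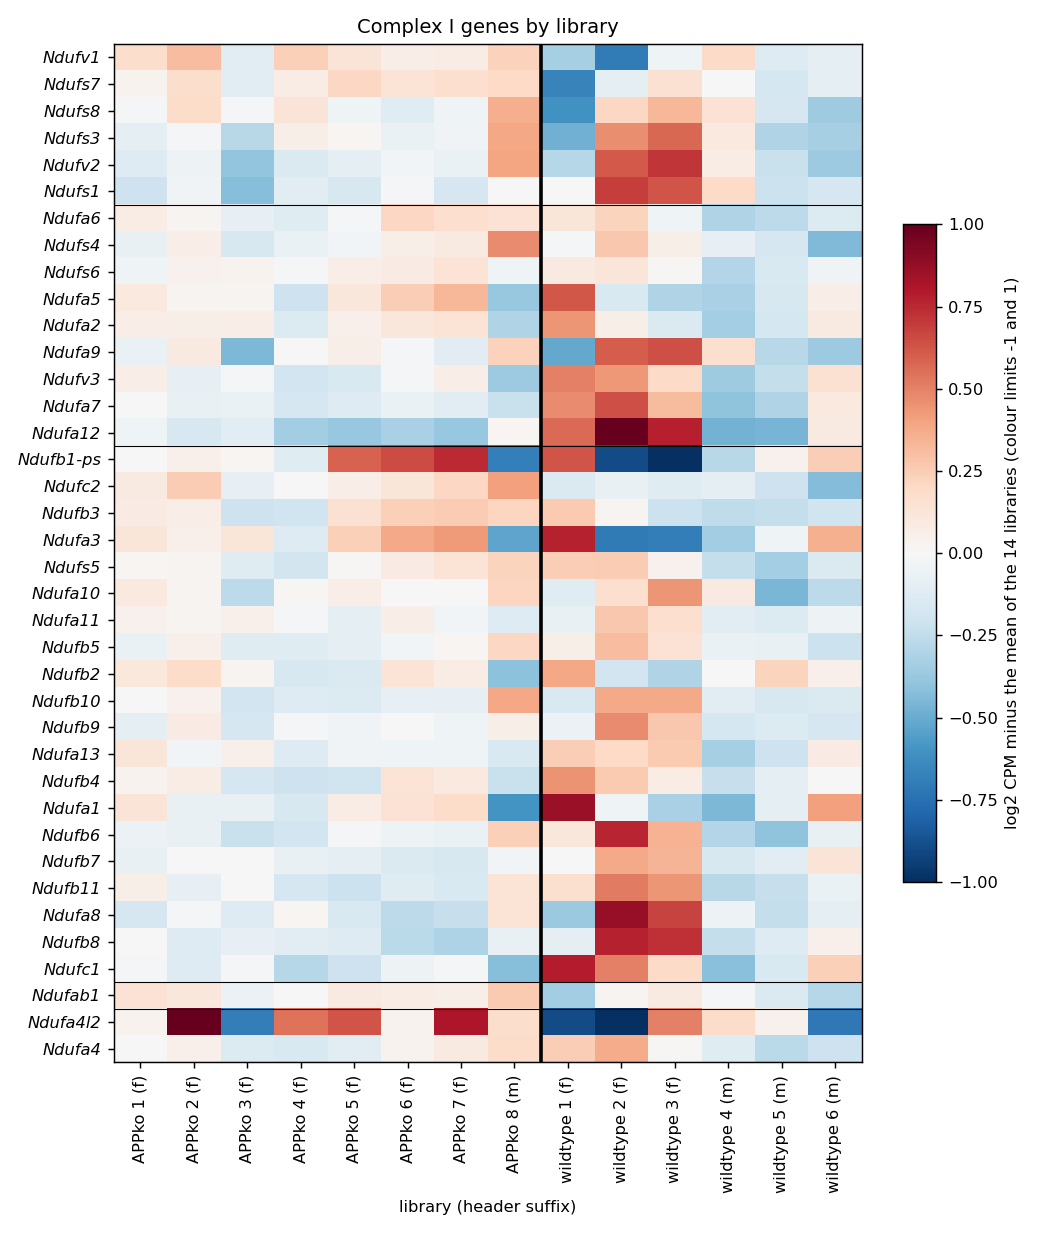
Log2 CPM of 38 complex I genes (rows, grouped by position as in the plot of log2 changes) in each library (columns, APPko then wildtype, header suffix in brackets), minus the gene's mean over the 14 libraries; colours end at -1 and 1, which 3 of 532 cells exceed. Wildtype libraries 2 and 3 are the strongest in colour, high for most genes and low for Ndufb1-ps and Ndufa3 among others.

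Within the header suffixes the members' changes lay apart. In the m libraries (1 APPko, 3 wildtype) the median log2 change was 0.33 and no member passed (0.0758% of all tested genes did). In the f libraries (7 APPko, 3 wildtype) the median was -0.23 and 12 members passed (30.8%, against 15.6% of all genes tested there), 1 as higher and 11 as lower. Among them were Ndufv1 as higher and Ndufs1, Ndufv2, Ndufa7, Ndufa8, Ndufa12, Ndufb6, Ndufb8, Ndufb11, Ndufc1 and Ndufv3 as lower. Wildtype libraries 2 and 3 make up most of the f wildtype group. The test of the difference itself, the genotype by suffix term over all genes, passed 2 members (5.13%), against 1.86% of all tested genes. Changes within m and within f come from separate fits of those libraries. The differences come from a single fit of all 14 libraries, so the changes do not subtract to them exactly. Ndufa12 changed by 0.34 in m and by -1.13 in f on the log2 scale, with a difference of 1.40 (SE 0.29, adjusted p = 0.0328). Ndufb6 changed by 0.55 in m and by -0.53 in f, with a difference of 1.01 (SE 0.24, adjusted p = 0.0447). Both tests set a single m library of APPko against the others and take it to vary as they do. The only m library of the APPko group held 349.7 CPM of Ndufb6, against 225 to 282 CPM in the m wildtype libraries. The difference was positive for 31 of 39 members, against 44.4% of all tested genes. Without wildtype libraries 2 and 3 the genotype by suffix term passed no member (0.101% of all tested genes), and so it did without wildtype library 5 (0.031%). Without wildtype library 1 it passed 20 members (18.1% of all tested genes). Without each other single library it passed 1 or 2 members, where 191 to 458 genes passed in all. It could not be fitted without APPko library 8. Ndufa12 lost this call without wildtype library 5, and Ndufb6 lost it without wildtype library 2, 4 or 5 and without APPko library 1, 2, 4, 5, 6 or 7. With suffix as a covariate over all 14 libraries 3 members passed as lower, Ndufa7, Ndufa12 and Ndufc1, where 6.53% of all genes did. With 1 APPko library in m, that library and its suffix cannot be told apart.

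**Figure D4:**
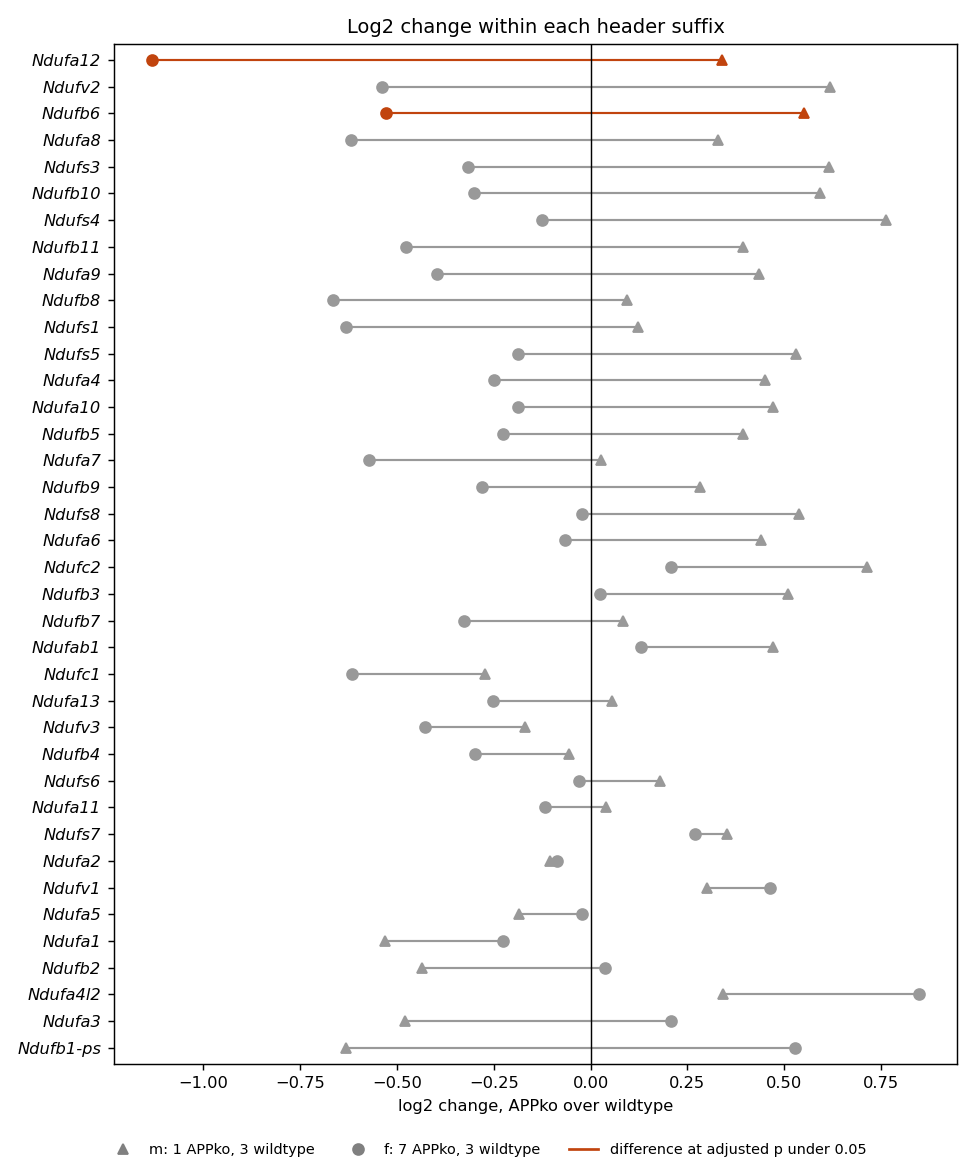
Log2 change in APPko over wildtype within the m libraries (triangles) and within the f libraries (circles) for 38 complex I genes, from separate fits. Genes are ordered by the m minus f difference in the fit of all 14 libraries. Red marks the 2 genes, Ndufa12 and Ndufb6, for which that difference had an adjusted p under 0.05. Triangles lie to the right of circles for most genes.

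Genes with the smallest p varied by suffix, and of them only Ndufa12 passed the test of the difference. In m and f the log2 changes were 0.71 and 0.21 for Ndufc2, 0.12 and -0.63 for Ndufs1, 0.30 and 0.46 for Ndufv1, and -0.27 and -0.62 for Ndufc1. They were 0.09 and -0.66 for Ndufb8, 0.35 and 0.27 for Ndufs7, 0.34 and 0.85 for Ndufa4l2, and 0.47 and 0.13 for Ndufab1. Ndufc2, Ndufv1, Ndufs7, Ndufa4l2 and Ndufab1 thus had positive values in both, Ndufc1 had negative ones in both, and for Ndufv1 and Ndufa4l2 the f value was the larger.

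The 39 genes differed widely in transcript level. Per length, in TPM (counts per kilobase of merged exons, scaled to each library's sum), Ndufa2 was highest at 2926 ± 305 TPM in APPko and 2837 ± 633 TPM in wildtype. Ndufc2 followed with 2569 ± 214 TPM in APPko and 2006 ± 152 TPM in wildtype, then Ndufa4 with 2081 ± 128 TPM in APPko and 2048 ± 314 TPM in wildtype, and Ndufa1 with 1771 ± 285 TPM in APPko and 1945 ± 799 TPM in wildtype. In wildtype Ndufc2, Ndufa4 and Ndufa1 differed by less than the larger of their SDs, while in APPko each of the 3 steps between these 4 genes exceeded it. At the low end Ndufab1 had 109 ± 5.8 TPM in APPko and 92.2 ± 7.3 TPM in wildtype, Ndufs1 had 40.3 ± 2.8 TPM in APPko and 49.9 ± 10.7 TPM in wildtype, and Ndufb2 had 24.6 ± 3.3 TPM in APPko and 25.0 ± 5.7 TPM in wildtype. Ndufa4l2 was lowest with 12.1 ± 4.0 TPM in APPko and 7.5 ± 3.6 TPM in wildtype. The order depends on the length used: with the median length of basic coding transcripts, a choice made after the data were seen, Ndufa4 moved to rank 1, Ndufa6 to rank 2 (20 by merged exons) and Ndufb7 to rank 12 (29 by merged exons), while Ndufs1, Ndufb2 and Ndufa4l2 kept ranks 37, 38 and 39.

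**Figure D5:**
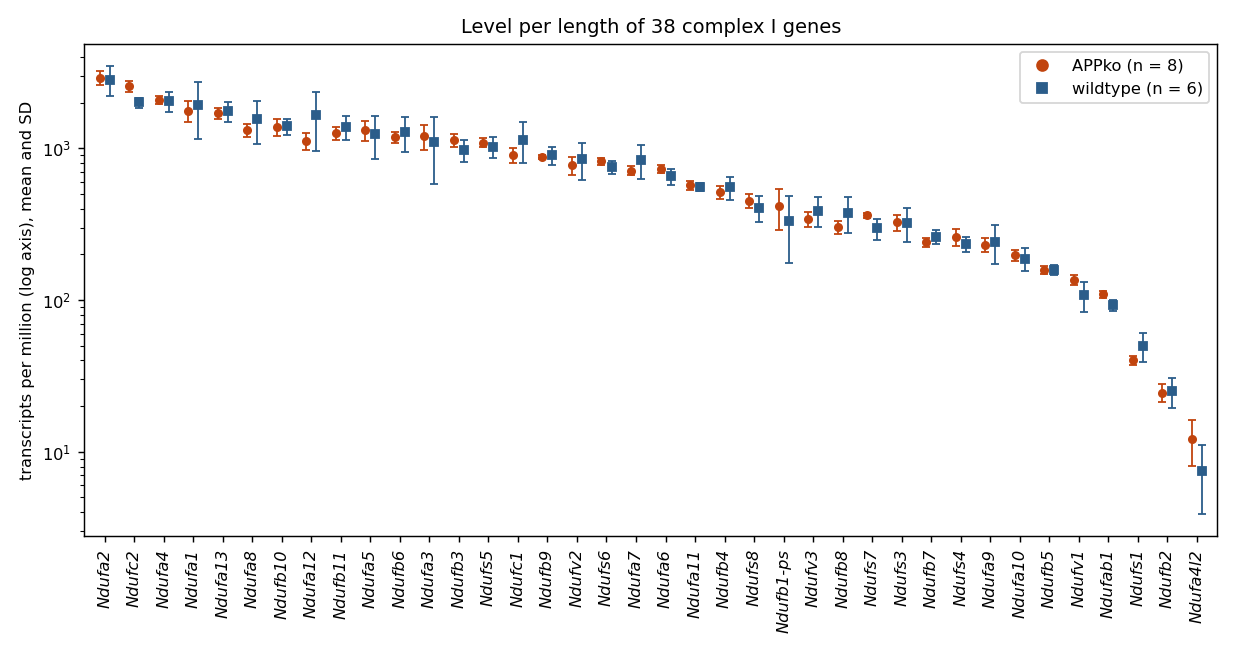
Level per length (TPM on a log axis, mean and SD) of 38 complex I genes in 8 APPko (circles) and 6 wildtype libraries (squares), ordered by the mean over all 14. Means over all 14 libraries run from 2888 TPM for Ndufa2 to 10.1 TPM for Ndufa4l2. Group means of these genes are 2926 and 12.1 TPM in APPko and 2837 and 7.5 TPM in wildtype.

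The rest of the respiratory chain was read for comparison, from lists chosen with earlier results of these data known. The 7 complex I subunits encoded in mitochondrial DNA had positive log2 changes from 0.007 to 0.54 (median 0.18), none passing. All mitochondrially encoded genes together took 5.95 ± 0.75% of raw counts in APPko and 6.40 ± 0.96% in wildtype. Of the 7 subunits, mt-Nd4l and mt-Nd6 had the smallest p. For mt-Nd4l the level was 5.12 ± 1.48 CPM in APPko and 3.51 ± 1.24 CPM in wildtype. For mt-Nd6 it was 1507 ± 208 CPM in APPko and 1259 ± 368 CPM in wildtype. Within suffixes the median of these 7 was -0.07 in m and 0.21 in f. Every other list of this comparison had its larger median in m, as the complex I members did. In m and f it was 0.25 and -0.12 for assembly factors and 0.21 and -0.07 for complex II. Complex III had 0.32 and 0.01, and complex IV had 0.23 and 0.002. Complex V had 0.22 and -0.15, and the regulators had 0.11 and 0.03. None of 14 complex I assembly factors passed (median -0.04); Tmem126b, of the membrane-arm assembly complex, had 49.6 ± 7.2 CPM in APPko and 83.1 ± 49.2 CPM in wildtype (adjusted p = 0.103), and Timmdc1 had 15.3 ± 2.5 CPM in APPko and 22.2 ± 8.0 CPM in wildtype (adjusted p = 0.115). None of 4 complex II genes passed, with Sdhc (0.52, adjusted p = 0.0583) and Sdha (-0.38, adjusted p = 0.0958) on opposite sides. None of 9 complex III genes passed (median 0.10), with Cyc1 at 0.29 and Uqcrfs1 at 0.27 closest. None of 8 regulators of mitochondrial genes passed, with Ppargc1a at -0.29 and Nrf1 at 0.30 closest (adjusted p = 0.115 and 0.232).

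Complexes IV and V held the only 3 genes on these lists that passed, and all 3 were higher in APPko. Of 10 complex IV genes, Cox6a1 had 1321, 1548 and 1756 CPM in APPko, against 612, 853 and 1295 CPM in wildtype (log2 change 0.70, SE 0.15, adjusted p = 0.0295). Cox8a had 850.4, 1029.7 and 1083 CPM in APPko, against 445, 605 and 815 CPM in wildtype (log2 change 0.64, SE 0.13, adjusted p = 0.0275). For both, every APPko library was above every wildtype library. Of 17 complex V genes, Atp5g2, which encodes the ring subunit c, had 54.7, 66.9 and 74.2 CPM in APPko, against 32.3, 40.9 and 59.6 CPM in wildtype (log2 change 0.64, SE 0.13, adjusted p = 0.0261), with overlap, and Atp5d had 99.5 ± 12.4 CPM in APPko and 63.1 ± 24.4 CPM in wildtype (adjusted p = 0.0715). Without wildtype libraries 2 and 3 the log2 changes of Cox8a, Cox6a1 and Atp5g2 were 0.50, 0.53 and 0.56, and none passed (adjusted p = 0.0864, 0.100 and 0.100). None of the 3 passed with the replicate block (0.0714 to 0.0847), with the GC trend removed (0.0969 to 0.123) or in m libraries alone (0.538 to 0.825) either. Single libraries mattered too. Each of the 3 lost its call when 1 of 5 libraries was left out (wildtype 2 and 3, APPko 2, 5 and 7), and for Cox6a1 this held for APPko 1, 4 and 6 as well. The adjusted p-values of those fits were 0.0524 to 0.0608 for Cox8a, 0.0521 to 0.0691 for Cox6a1 and 0.0536 to 0.0607 for Atp5g2. The list medians were 0.12 for complex IV and 0.02 for complex V.

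Some counts may be shared between rows. 18 members have exon bases that the deposited annotation also gives to another gene, 7 of them over 10% of their bases, and the strand setting of the counting is not given in the sources used here. Ndufb6 shares 39% of its exon bases with Smim27 on the opposite strand, Ndufa13 shares 30.0% with Tssk6 on the opposite strand, and Ndufb9 shares 19.5% with Gm49356 on the same strand, so values of these 3 are uncertain. How many of their reads came from the other gene was not measured. The 6 processed pseudogenes with matching symbols (Ndufa11b, Ndufa12-ps, Ndufab1-ps, Ndufb4c, Ndufs5-ps and Ndufs6b) were all tested and none passed. Ndufa12-ps had 13.3 ± 1.6 CPM in APPko and 19.0 ± 7.2 CPM in wildtype, a log2 change of -0.52 (adjusted p = 0.115). Its wildtype libraries ran from 11.5 to 30.8 CPM, a range that holds all its APPko values as the range of its parent gene does, and whether its reads came from Ndufa12 was not tested.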

How the data were processed

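The authors deposited raw counts of reads per gene symbol, 1 table per library, and a GTF annotation, which was used here for gene types, chromosomes and exon positions. The submitters' processing notes name cutadapt 3.5, STAR 2.7.8a and featureCounts 2.0.1. The strand setting and the treatment of reads that map to several places were not given in the sources used here. Libraries were grouped by title, and rows by symbol.

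Counts were fitted with edgeR 4.0.16 (R 4.3.3) after its expression filter (minimum count 10) and TMM scaling, with genotype as the only term, a robust quasi-likelihood test and Benjamini-Hochberg adjustment over 22150 genes. This was tested on simulated data. DESeq2 1.42.0, limma 3.58.1 (voom) and the other settings of the closing section were alternatives. CPM are TMM-scaled. Depth of 16686909 to 31031126 counts bounds counting error; p-values rest on the spread from culture to culture. The 43 pairs of libraries within a group differed beyond sampling noise.

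The members, the gene lists and the alternatives were chosen with earlier results of these data known. The values of 1 member are not reported here, though counts over all members include it. Named with full values are App, the other members among the 10 of smallest p, the X-linked members, Ndufa4 and Ndufa4l2, the extremes per length, and the 2 genes of smallest p on each list. Ndufb6, the examples of wildtype spread and genes named as sharing exons were chosen after their values were seen.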

Additional observations from a re-analysis of the deposited data

Results flagged for a closer look

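The genotype change of Ndufa12 differed between the header suffixes, with an m minus f difference of 1.40 on the log2 scale (0.34 in m and -1.13 in f). That of Ndufb6 did too, with a difference of 1.01 (0.55 in m and -0.53 in f). The values in brackets are from separate fits within each suffix, and the differences from the fit of all 14 libraries. Both differences rest on 1 m library of APPko, and neither passed without wildtype libraries 2 and 3 or without wildtype library 5. Ndufb6 was also lost without most other single libraries. A single library stood far from the rest of its group for 6 members. In 5 of them it was APPko library 8, the only m library of its group and the highest in each: Ndufb10 had 821 CPM there, Ndufb6 had 349.7 CPM, Ndufs3 had 341 CPM, Ndufs4 had 348 CPM and Ndufv2 had 832 CPM. In the sixth, Ndufa5 had 743 CPM in wildtype library 1. These are 6 of 78 groups of values examined (7.69%). Chance marks about 1 group in 20 where groups are independent. The 5 marks in APPko library 8 come from 1 library and need not be independent, so the share is not read against chance.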

How the results depend on the processing

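No complex I gene passed in 13 of 17 settings other than leaving out a library and in 12 of 14 fits without a library. 2 passed with scaling by totals only, 3 with DESeq2, 3 with the header suffix as a covariate and 12 in f libraries alone; without single libraries the number ran from 0 to 2. Over all genes the number passing, 521, became 1765 with DESeq2, 1446 with suffix as a covariate, 3672 in f libraries alone, 19 in m libraries alone, 35 without wildtype libraries 2 and 3, 345 with the gene length trend removed, 223 with the GC trend removed, and 38 to 1436 without single libraries. The members' median log2 change was -0.23 in f, 0.33 in m and 0.091 without wildtype libraries 2 and 3, where the main value was -0.06; it was negative in 13 of the 17 settings and ran from -0.08 to 0.01 without single libraries. The genotype by suffix term passed 2 members, and 411 of 22150 tested genes in all. It passed 1 member with scaling by totals only (397 of 22150 genes). With the filter of CPM of at least 1 in at least 6 libraries it passed 1 (214 of 17627). With every gene of at least 1 count it passed 6 (921 of 49361). Without mitochondrially encoded genes it passed 4 (454 of 22153), and with the GC trend removed 4 (531 of 22150). Without wildtype libraries 2 and 3 it passed 0 (24 of 23764). Without single libraries it passed 0 to 20, from 7 of 22568 genes without wildtype library 5 to 4115 of 22732 without wildtype library 1.

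Signs of 21 of 39 members turned in m libraries alone, of 15 without wildtype libraries 2 and 3, and of 9 in f libraries alone. With limma's voom 9 turned, with scaling by totals only 8, with the GC trend removed 7, and in every other fit fewer. Among Ndufb6, the X-linked members and the genes of smallest p, the sign turned in m libraries alone for Ndufa12 (0.34), Ndufs1 (0.12), Ndufb8 (0.093), Ndufb11 (0.39) and Ndufb6 (0.55). It turned without wildtype libraries 2 and 3 for Ndufb11 (0.035) and Ndufb6 (0.11), and with limma's voom for Ndufb6 (0.0077). It also turned with the GC trend removed for Ndufs7 (-0.038), and without wildtype library 1 for Ndufa1 (-0.26 to 0.051 over fits without a library). The cause was not tested. With the replicate block no member passed and 21 genes did. Correlations of same-numbered libraries ran from -0.34 to 0.19, and 3 of 6 APPko libraries correlated best with the wildtype library of their own number. These values cannot decide whether the numbers pair the cultures, and the labels do not say so. Depth limits Ndufa4l2 most, with 25 to 194 counts per library.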
